A study of Rattus norvegicus with 50 samples.

Results

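Gene expression in peripheral blood mononuclear cells (PBMC) was compared between 9 leptin-treated rats on a high-fat diet (MONW-Lep) and 8 normal-weight rats (NW). These 17 arrays, 1 per animal, were those whose titles name PBMC with the leptin or the control group, out of 50 arrays in all and 25 from PBMC. NW rats were male Wistar rats that had vehicle by mouth on days 1 to 20 of suckling and later a diet in which fat made 10% of the calories. MONW-Lep rats were male Wistar rats that had oral recombinant murine leptin on the same days, at 5 times the amount taken in daily with milk, and later a diet in which fat made 60% of the calories, matched to NW in energy, for 11 weeks. The remaining group, MONW, had vehicle and the same high-fat diet (8 PBMC arrays) and models a metabolically obese state at normal weight. The study reports raised adiposity in both high-fat groups and signs of insulin resistance only in MONW. All rats were 3.5 months old, and the pups came from 8 litters whose assignment to animals the labels do not give, so p-values here take each array as independent. Leptin and diet both differ between MONW-Lep and NW and cannot be told apart in that comparison.

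PBMC are the lymphocytes and monocytes that a density gradient separates from whole blood, and platelets and their RNA are often carried along with them. Type I interferons act on these cells through a receptor that activates STAT proteins and IRF9, which bind a short DNA element before many genes and switch on antiviral sensors, the OAS and IFIT proteins and the regulator IRF7. Monocytes and plasmacytoid dendritic cells sense viral and bacterial products through Toll-like receptors, while immediate early genes such as *Fos* and *Egr1* are switched on within minutes of many stimuli, the handling of blood among them. Leptin is a hormone of fat cells and of milk, and white blood cells carry its receptor.

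Interferon genes that were lower in MONW-Lep than in NW carry the main pattern described here. It was not particular to MONW-Lep, as 23 of 25 of these genes were also below NW in MONW. The 250 bases before the start site that the RefSeq promoter table uses are shown for 4 of them (GRCr8, 5′ to 3′, minus strand in each). The RefSeq span of the gene reaches 520 bases further upstream than this site in *Irf7*, 217 in *Oasl*, 39 in *Oas1b* and 0 in *Ifih1*, so the stretch shown for *Irf7* lies within the gene's span and those of *Oasl* and *Oas1b* partly do. Capitals mark the letters GAAANNGAAA, a core of the interferon-stimulated response element, on either strand. In *Oas1b* a pair of matches overlaps, and *Oasl* is shown as a gene of the same list without a match.
Irf7 (chr1:205800024-205800273, minus strand): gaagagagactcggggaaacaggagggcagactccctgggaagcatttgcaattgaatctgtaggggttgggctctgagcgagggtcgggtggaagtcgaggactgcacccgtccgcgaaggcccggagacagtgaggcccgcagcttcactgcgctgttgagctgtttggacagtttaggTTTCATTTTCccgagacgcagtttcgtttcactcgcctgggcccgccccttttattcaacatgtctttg
Ifih1 (chr3:67683969-67684218, minus strand): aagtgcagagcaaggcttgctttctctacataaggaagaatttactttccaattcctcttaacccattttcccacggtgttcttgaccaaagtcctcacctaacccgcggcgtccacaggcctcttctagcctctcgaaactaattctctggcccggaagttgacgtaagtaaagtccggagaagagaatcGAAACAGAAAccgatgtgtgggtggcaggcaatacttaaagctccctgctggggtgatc
Oas1b (chr12:41395853-41396102, minus strand): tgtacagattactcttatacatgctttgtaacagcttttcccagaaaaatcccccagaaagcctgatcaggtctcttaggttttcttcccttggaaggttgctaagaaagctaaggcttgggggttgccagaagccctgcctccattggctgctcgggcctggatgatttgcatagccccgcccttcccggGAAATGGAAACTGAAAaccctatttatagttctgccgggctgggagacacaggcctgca
Oasl (chr12:47356293-47356542, minus strand): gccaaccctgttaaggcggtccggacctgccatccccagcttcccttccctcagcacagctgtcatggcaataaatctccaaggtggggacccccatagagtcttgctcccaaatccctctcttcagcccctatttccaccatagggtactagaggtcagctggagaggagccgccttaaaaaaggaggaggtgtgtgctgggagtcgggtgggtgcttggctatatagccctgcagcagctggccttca
The match nearest that start site began 69 bases before it in *Irf7*, 59 bases in *Ifih1* and 53 bases in *Oas1b*. Of the 25 measured interferon genes, 18 had a promoter in the table, and 13 of these 18 (72.2%) held the motif, against 902 of all 27457 promoters of that length (3.29%). Of the interferon genes that passed the test described below, 5 had a promoter and 3 of them held the motif. The list was chosen as genes that respond to interferon, so its high share goes with that choice and does not bear on the difference between the groups. A match of letters is a description and no evidence of binding.

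The arrays gave log2 values that the authors had made with RMA. Array medians lay between 6.66 and 6.75, and between 9.15% and 21.1% of the genes on an array lay above the 95th percentile of its negative control probes. *Cd3d*, part of the T cell receptor complex, averaged 9.87 ± 0.10 in MONW-Lep and 9.70 ± 0.13 in NW, and *Lyz2*, the lysozyme of monocytes and macrophages, 12.54 ± 0.16 and 12.73 ± 0.12 (mean log2 value ± SD, n = 9 and 8), so both main PBMC types were detected. Platelet genes set 4 of the 25 PBMC arrays apart. The mean of *Pf4* and *Ppbp*, the chemokines of platelet alpha granules, was at most 8.51 on NW replicate 6, MONW replicate 7 and MONW-Lep replicates 5 and 8, and at least 10.21 on every other array. *Itga2b*, the platelet integrin, was not analysed here because the annotation used names no probe group for it. The 4 platelet-poor arrays had erythroid marker levels of 8.62 to 9.02, against 7.58 to 8.76 on the others. Their monocyte marker levels were 8.21 to 8.53, against 8.36 to 9.36. Immediate early genes averaged 9.18 to 9.54 on them and 8.77 to 9.31 on the others.

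Across genes, the difference between MONW-Lep and NW was small and no gene passed after adjustment. At an unadjusted p under 0.05 in limma, the threshold of the study's methods, 715 of 15049 genes (4.75%) passed, 355 higher (2.36%) and 360 lower (2.39%) in MONW-Lep, a share close to the threshold itself. After Benjamini-Hochberg adjustment 0 genes passed 0.05 (0.0%, limma), and the smallest adjusted p was 0.787. Below, a gene is said to have passed, risen or fallen by that unadjusted limma threshold, and its exact p is that of a two-sided exact permutation test over all 24310 regroupings of the 9 and 8 arrays. Among the 715 genes the median size of the difference was 0.252 and the largest 0.741 on the log2 scale, 26 were over 0.5 and 0 reached a 2-fold change. Only 65 of the 715 had a mean level above the negative controls (8.98, the mean over arrays of their 95th percentile), as 2196 of all genes did. Of the 55 named genes that passed 9 did, *Egr1*, *Fos*, *Nr4a1*, *Ccr7*, *Cd247*, *Cd3d*, *Lyz2*, *Cd68* and *Nr3c1*, while the other 46 had mean levels that negative controls also reach. The arrays of the groups did not overlap in 1 gene (0.00664%, 0.0% with MONW-Lep higher), the olfactory receptor gene *Or4d2b*, singled out after its values were seen. It read 4.69 to 5.05 in MONW-Lep and 5.07 to 5.32 in NW, a level within the range of the negative controls, and 4.74 to 5.50 in MONW.

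**Figure D1:**
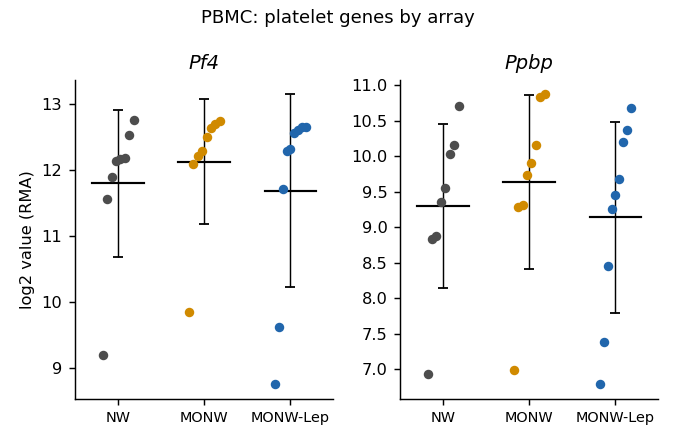
*Pf4* and *Ppbp* in the 3 PBMC groups (vertical axes, log2 value; 1 point per array, line at the mean, bar of 1 SD). One low array in NW, 1 in MONW and 2 in MONW-Lep stand apart, and the remaining arrays of the groups overlap.

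Platelet content did not separate the groups. *Pf4* ran from 8.76 to 12.65 in MONW-Lep (median 12.33) and from 9.20 to 12.76 in NW (median 12.15). *Ppbp* ran from 6.79 to 10.68 (median 9.45) and from 6.93 to 10.70 (median 9.45). The groups overlapped over almost their whole range in both genes. The platelet level, the mean of both, was 10.41 ± 1.36 (SD, n = 9) in MONW-Lep and 10.55 ± 1.12 (SD, n = 8) in NW, a difference of -0.14 (exact two-sided permutation test over 24310 regroupings, p = 0.849). Without the 4 platelet-poor arrays it was 11.06 ± 0.47 against 10.91 ± 0.53 (SD, n = 7 in each), a difference of 0.15 (exact permutation p = 0.575). Of 19 measured platelet genes, 1 passed the test (5.26%, against 4.75% of all genes), *Sparc*, a matrix protein stored in platelets, at 0.30 ± 0.12 (SE), a call that ended without NW replicate 3 (0.25) or 7 (0.21). The von Willebrand factor gene *Vwf* was at 0.01 and the platelet glycoprotein *Gp9* at 0.02. The letters AGATAA, bound by GATA factors and searched on both strands, were in 4 of 13 platelet promoters (30.8%) and in 10.0% of all promoters.

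With the platelet level as a covariate 804 genes passed (5.34%), 683 of them among the 715, and all 55 genes named here that had passed still did. Without the 4 platelet-poor arrays 943 passed (6.27%), 510 of them among the 715, and 49 of the 55 did. The 6 that did not were *Vcan*, *Lyz2*, *Cd68*, *Acadvl*, *Slc16a3* and *Ddit4*. No gene passed after adjustment in either fit (limma, smallest adjusted p = 0.619 and 0.132).

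The gene with the largest decrease was *Slfn4* (chr10:68492135-68515674), a Schlafen family member that interferon and Toll-like receptor signals induce in mouse macrophages. Its log2 values ran from 8.13 to 9.02 in MONW-Lep (median 8.74) and from 8.85 to 9.88 in NW (median 9.47). Of the 9 MONW-Lep arrays 7 lay below every NW array, and the overlap came from MONW-Lep replicates 2 and 4 and NW replicate 7. The difference was -0.74 ± 0.17 (SE), 1.67-fold lower (limma p = 0.000137, adjusted p = 0.787, exact p = 0.000165). MONW averaged 8.78, and its difference from NW was -0.65.

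*Tlr7* (chrX:30644324-30670796), the endosomal receptor for single-stranded RNA, fell by 0.68 on the log2 scale. It read 6.72 to 8.06 in MONW-Lep (median 7.64) and 7.17 to 8.98 in NW (median 8.45). All 9 MONW-Lep arrays were below the NW median, and NW replicates 6 (7.17, platelet-poor) and 7 (7.83) lay within the MONW-Lep range (limma p = 0.00517, exact p = 0.00934). *Cysltr1*, a receptor for cysteinyl leukotrienes, fell by 0.64 ± 0.24 (SE, exact p = 0.0354), from a low mean of 4.87 in NW. *Mnda*, an interferon-inducible nuclear protein of myeloid cells, fell by 0.64 ± 0.30 (SE, limma p = 0.0422, exact p = 0.0611), and *Gapt*, a membrane adaptor that binds GRB2, by 0.57 ± 0.22 (SE, exact p = 0.0269). *Med7*, a subunit of the Mediator complex that links transcription factors to RNA polymerase, fell by 0.58 ± 0.22 (SE, exact p = 0.0212) and was below every NW array on 5 of 9 MONW-Lep arrays. *Tfec*, a transcription factor of the MiT family found in macrophages, fell by 0.56 ± 0.22 (SE, exact p = 0.039), a call that ended without NW replicate 3 (-0.41). *LOC681325* fell by 0.57 ± 0.25 (SE, limma p = 0.0334, exact p = 0.0594). Its call ended without NW replicates 1, 3 or 5 or MONW-Lep replicates 5 or 8 (-0.53 to -0.42), and that of *Mnda* without any 1 of 10 arrays (-0.65 to -0.48), NW replicates 1 to 5 and 8 and MONW-Lep replicates 3, 5, 8 and 10.

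**Figure D2:**
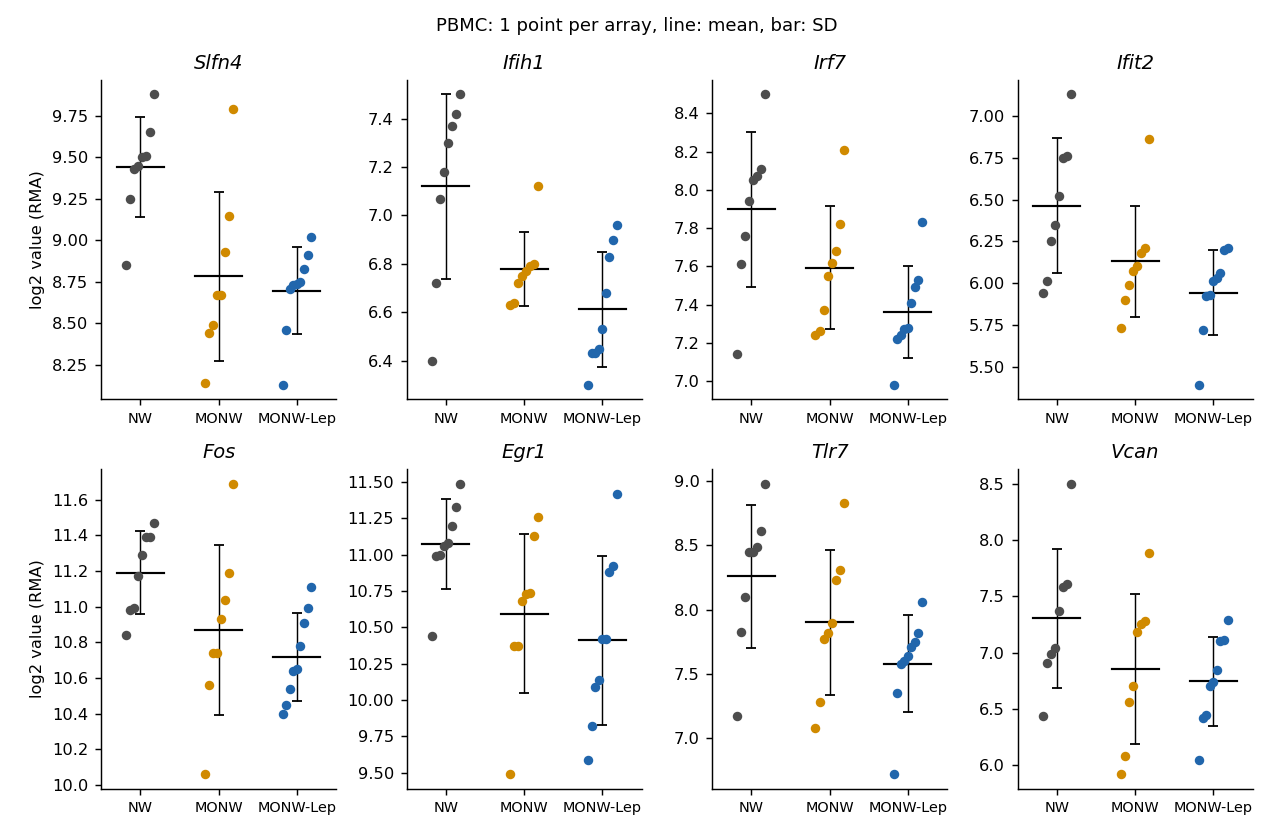
Log2 values (vertical axes) of 8 genes named for a decrease, by PBMC group, with 1 point per array, a line at the mean and a bar of 1 SD. MONW-Lep means are below NW means in every panel, 7 of 9 MONW-Lep arrays lie below all NW arrays in *Slfn4*, and MONW means lie between the other groups or close to MONW-Lep.

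Interferon response genes were mostly lower in MONW-Lep, at low signal. Of 25 measured genes 24 were below 0, against 47.2% of all genes, 8 passed as lower (32.0%, against 2.39% of all genes) and 0 as higher, and the median difference was -0.21, against 0.01 over all genes. The 8 were *Ifih1*, *Irf7*, *Ifit2*, *Oas2*, *Usp18*, *Oasl*, *Cmpk2* and *Oas1b*, and 0 of them had a mean level above the negative controls (6 of the 25 did). The mean log2 level of the list ran from 7.33 to 7.64 in MONW-Lep (median 7.46) and from 7.40 to 8.00 in NW (median 7.75). In MONW it ran from 7.42 to 7.83 (median 7.49). All 9 MONW-Lep arrays lay below the NW median, and NW replicates 5 (7.40), 6 (7.63) and 7 (7.48) lay within the MONW-Lep range. Without NW replicate 5 the count was 13 and without NW replicate 7 it was 12, while leaving out any other array gave 6 to 11. Over all genes, fewer passed as lower without NW replicate 5 than the 360 with all arrays, and more did without NW replicate 7.

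*Ifih1* (chr3:67635924-67683968), which encodes the cytosolic sensor of long double-stranded RNA MDA5, read 6.30 to 6.96 in MONW-Lep (median 6.53) and 6.40 to 7.50 in NW (median 7.24). The overlap came from NW replicates 6 and 7, and the other 6 NW arrays were above every MONW-Lep array. The difference was -0.51 ± 0.13 (SE), 1.42-fold lower (limma p = 0.000442, adjusted p = 0.787, exact p = 0.00679). *Irf7* (chr1:205796956-205800543), the regulator that amplifies type I interferon production, read 6.98 to 7.83 (median 7.28) and 7.14 to 8.50 (median 7.99). NW replicates 5, 6 and 7 (7.14, 7.76 and 7.61) lay within the MONW-Lep range, and the difference was -0.54 ± 0.15 (SE, limma p = 0.00122, exact p = 0.00518). *Ifit2* (chr1:241515735-241521799), an interferon-induced protein that binds viral RNA, read 5.39 to 6.21 (median 6.01) and 5.94 to 7.13 (median 6.43). Of the MONW-Lep arrays 4 were below all NW arrays, and the difference was -0.52 ± 0.15 (SE, limma p = 0.00195, exact p = 0.00452).

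*Oas2*, which makes the 2-5A messenger that activates RNase L, read 4.58 to 5.34 in MONW-Lep (median 4.86) and 4.67 to 5.69 in NW (median 5.45). NW replicates 5 (4.67) and 7 (5.25) lay within the MONW-Lep range, and the difference was -0.46 ± 0.14 (SE, exact p = 0.00864). *Oasl*, a relative of the OAS enzymes (shown above without the motif), read 6.36 to 6.95 (median 6.51) and 6.48 to 8.09 (median 7.28). Its difference was -0.59 ± 0.21 (SE, exact p = 0.00708), and NW replicates 5 and 7 lay within the MONW-Lep range. *Usp18*, which removes ISG15 and dampens interferon receptor signalling, fell by 0.42 ± 0.14 (SE, exact p = 0.012). *Oas1b*, an OAS family member with a pair of motif matches, fell by 0.25 (limma p = 0.0496, exact p = 0.0928) and *Cmpk2*, a mitochondrial nucleotide kinase, by 0.19 (limma p = 0.0449, exact p = 0.0543).

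Other interferon genes did not pass. The differences were -0.27 ± 0.14 (SE, exact p = 0.12) for *Isg15*, the ubiquitin-like modifier, -0.21 (exact p = 0.0798) for the chemokine *Cxcl10* and -0.43 ± 0.42 (SE, exact p = 0.313) for *Rsad2*, the antiviral enzyme viperin. *Mx1*, a dynamin-like antiviral GTPase, was at -0.08, *Stat2*, a transducer of the receptor's signal, at -0.06 and *Irf9*, its DNA-binding partner, at -0.13. *Ifi44* alone was above 0, at 0.02.

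Immediate early genes were also mostly lower. Of 23 measured genes 18 were below 0, 6 passed as lower (26.1%, against 2.39% of all genes) and 0 as higher, with a median of -0.20. Of the 6, 4 had a mean level above the negative controls. With the platelet level as a covariate 10 passed as lower (2.93% of all genes), and 10 did without the 4 platelet-poor arrays (3.62%). The mean level of the list was below every NW array (9.08 at the lowest) on 7 of 9 MONW-Lep arrays, and the 2 others, replicates 5 (9.35) and 8 (9.54), were the platelet-poor ones. *Fos* (chr6:110852188-110855054), a subunit of the AP-1 transcription factor, read 10.40 to 11.11 in MONW-Lep (median 10.65) and 10.84 to 11.47 in NW (median 11.23). Of the MONW-Lep arrays 6 were below all NW arrays, and the difference was -0.47 ± 0.15 (SE), 1.39-fold lower (limma p = 0.00453, adjusted p = 0.966, exact p = 0.00177).

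*Egr1* (chr18:26737078-26740877), a zinc finger factor induced by growth factors, read 9.59 to 11.42 in MONW-Lep (median 10.42) and 10.44 to 11.49 in NW (median 11.07). It was below all NW arrays on 6 MONW-Lep arrays and as high as NW on replicate 8, with a difference of -0.66 ± 0.22 (SE, exact p = 0.013) and of -0.82 without the platelet-poor arrays. *Fosb*, a relative of *Fos*, read 8.35 to 9.62 in MONW-Lep (median 8.58) and 8.66 to 9.51 in NW (median 9.17), with a difference of -0.44 ± 0.17 (SE, exact p = 0.0183). *Nr4a1*, an orphan nuclear receptor induced by T cell receptor signals, fell by 0.34 ± 0.13 (SE, limma p = 0.0167, exact p = 0.00354). *Klf4*, a zinc finger factor of monocytes, fell by 0.31 (exact p = 0.0153) and *Zfp36*, which destabilizes cytokine mRNA, by 0.32 (limma p = 0.0346, exact p = 0.0705). *Nr4a2* was at -0.66 ± 0.32 (SE) and did not pass (exact p = 0.111), and *Jun*, *Jund* and *Myc* were above 0, at 0.02, 0.09 and 0.13.

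Monocyte markers were on the low side without exception in direction, and few passed. All 17 measured markers were below 0, against 47.2% of all genes, with a median of -0.26, and 4 passed as lower (23.5%, against 2.39% of all genes). The mean marker level ran from 8.21 to 9.08 in MONW-Lep (median 8.76) and from 8.53 to 9.36 in NW (median 8.97), and 7 of 9 MONW-Lep arrays were below the NW median. In RNA from mixed cells, fewer monocytes and less RNA of these genes per monocyte cannot be told apart. *Lyz2* read 12.23 to 12.73 in MONW-Lep (median 12.56) and 12.54 to 12.89 in NW (median 12.74). All MONW-Lep arrays were below the NW median, with a difference of -0.19 ± 0.09 (SE, exact p = 0.011). *Vcan*, the proteoglycan versican made by classical monocytes, fell by 0.56 ± 0.25 (SE, exact p = 0.0344), *Cd300e*, an activating monocyte receptor, by 0.32 ± 0.15 (SE, limma p = 0.0381, exact p = 0.0631) and *Cd68*, a lysosomal glycoprotein, by 0.37 ± 0.18 (SE, exact p = 0.0495). *Ccr2*, the receptor that draws monocytes out of bone marrow, was at -0.44 (exact p = 0.0509), and *Csf1r*, the receptor for the monocyte growth factor, at -0.21 (exact p = 0.417).

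The count of 4 monocyte markers rested on single arrays. It was 0 without NW replicate 3, MONW-Lep replicate 5 or MONW-Lep replicate 8, it was 1 without NW replicates 2 or 4 or MONW-Lep replicate 3, and 2 without NW replicates 1 or 5 or MONW-Lep replicate 10. It was 7 without NW replicate 6, and 2 without all 4 platelet-poor arrays, where all 17 markers were still below 0. Leaving out NW replicate 6 also raised the count over all genes, from 715 to 1131. The calls of *Vcan* and *Lyz2* each ended without any 1 of 6 arrays, that of *Cd300e* of 8 and that of *Cd68* of 12.

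The Toll-like receptor list, of genes that monocytes, dendritic cells and B cells carry, was below 0 in 12 of 14 cases (47.2% of all genes) with a median of -0.24. It also holds the co-receptor genes *Cd14* (-0.26), which the monocyte list shares, and *Ly96* (-0.33). In this list 2 genes passed as lower (14.3%, against 2.39% of all genes), *Tlr7* and *Tlr1*. *Tlr1*, which pairs with TLR2 to bind bacterial lipopeptides, fell by 0.46 ± 0.22 (SE, limma p = 0.0496, exact p = 0.0532), a call that ended without any 1 of 11 arrays (-0.48 to -0.33). *Tlr8*, a neighbour of *Tlr7* in function, was at -0.50 ± 0.31 (SE, exact p = 0.159) and *Tlr4*, the receptor for lipopolysaccharide, at -0.23 (exact p = 0.435). The count was 5 without NW replicate 6 and 1 without NW replicates 1, 2, 3, 5 or 8 or MONW-Lep replicates 3, 5, 7 or 8. Over all genes 1131 passed without NW replicate 6, against 715 with all arrays. Of 24 inflammation genes 21 were below 0 and 1 passed as lower (4.17%), a share near that of all genes (2.39%). This was *Nlrp3*, the sensor of the inflammasome, which read 6.84 to 7.37 in MONW-Lep (median 7.16) and 7.11 to 7.98 in NW (median 7.44). All 9 MONW-Lep arrays were below the NW median, with a difference of -0.36 ± 0.15 (SE, exact p = 0.0179), and the call ended without NW replicate 2 or 3 (-0.29 in both). *Il1b*, the cytokine that the inflammasome matures, was at -0.55 ± 0.28 (SE, limma p = 0.0599, exact p = 0.0294), and *Tnf* at -0.16 (exact p = 0.271).

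The monocyte level had a median of 8.76 in MONW-Lep and 8.97 in NW, with overlapping ranges and without a test. The fit was repeated with it as a covariate. The platelet-poor arrays read low in it (8.21 to 8.53, against 8.36 to 9.36 on the others), so this covariate is not separate from platelet content. Why calls were kept or lost under it was not tested. With this covariate 956 genes passed (6.35%), 418 of them among the 715, and 29 of the 55 named genes that had passed still did. The interferon list had a count of 8 lower (3.36% of all genes) and a median of -0.21, with *Ifih1* at -0.45, *Irf7* at -0.45 and *Oas2* at -0.39, all of which passed. The immediate early list had 7 lower and a median of -0.20, with *Egr1* at -0.67. The Toll-like receptor median was -0.03 and the inflammation median -0.06. *Slfn4* (-0.53) and *Tlr7* (-0.34) passed, while *Mnda* (-0.10), *Nlrp3* (-0.14), *Tlr1* (-0.08) and *Oasl* (-0.35) did not.

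**Figure D3:**
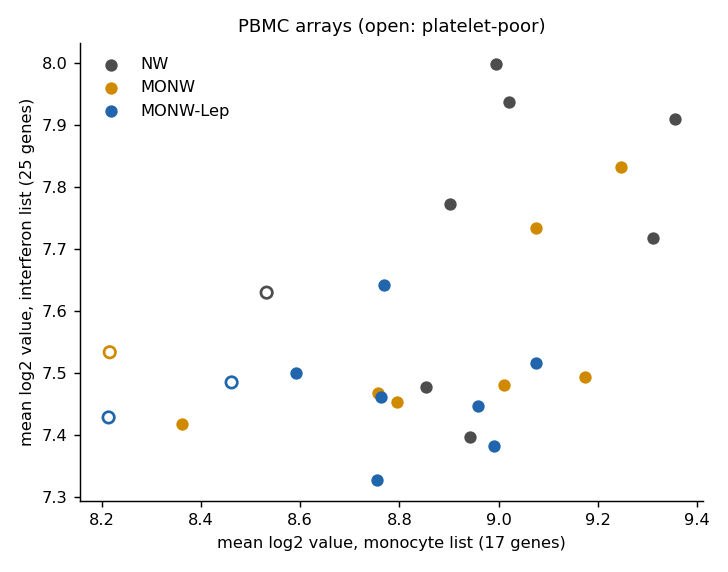
Mean log2 level of the 25 interferon genes (vertical) against that of the 17 monocyte markers (horizontal) on the 25 PBMC arrays, with open symbols for the 4 platelet-poor arrays. The MONW-Lep arrays lie between 7.33 and 7.64 on the interferon axis across the monocyte range, and 6 of 8 NW arrays lie at 7.63 or above. The MONW arrays lie between 7.42 and 7.83, with a median of 7.49, near that of MONW-Lep (7.46).

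The 10 genes with the largest increases are mostly known from other tissues. All 10 had mean levels below the negative control threshold, as did 9 of the 10 with the largest decreases. *Pdzd9*, which encodes a PDZ domain protein, read 4.23 to 5.20 in MONW-Lep (median 4.78) and 3.58 to 4.45 in NW (median 4.30). Of the MONW-Lep arrays 8 were above all NW arrays, with a difference of 0.60 ± 0.15 (SE, limma p = 0.000319, exact p = 0.00148). *Trdn*, the triadin of muscle calcium release, read 3.94 to 4.58 (median 4.17) and 3.53 to 3.99 (median 3.79). Again 8 MONW-Lep arrays were above all NW arrays, with a difference of 0.47 ± 0.12 (SE, limma p = 0.000607, exact p = 0.000206). *Dpp10*, a partner of neuronal potassium channels, was higher by 0.59 ± 0.15 (SE, exact p = 0.00601) and *Fam227a*, a gene of unassigned role, by 0.53 ± 0.14 (SE, exact p = 0.000411).

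*Zfp57*, a zinc finger protein that guards imprinted regions, was higher by 0.57 ± 0.16 (SE, exact p = 0.0133), and *Plxna2*, a semaphorin receptor, by 0.53 ± 0.17 (SE, exact p = 0.0283). *Mpzl1*, a cell surface glycoprotein that binds the phosphatase SHP2, read 6.49 to 7.57 in MONW-Lep (median 7.12) and 6.19 to 6.97 in NW (median 6.53). It was above all NW arrays on 6 MONW-Lep arrays, with a difference of 0.48 ± 0.15 (SE, exact p = 0.00601). *Galntl6*, a glycosyltransferase gene, *Rbfox2*, a splicing regulator, and *Kap*, a kidney protein under androgen control, were higher by 0.47, 0.45 and 0.45 (exact p = 0.0177, 0.0104 and 0.00786). All 10 of these genes passed with each single array left out, with the platelet covariate, without the platelet-poor arrays and with the monocyte covariate.

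**Figure D4:**
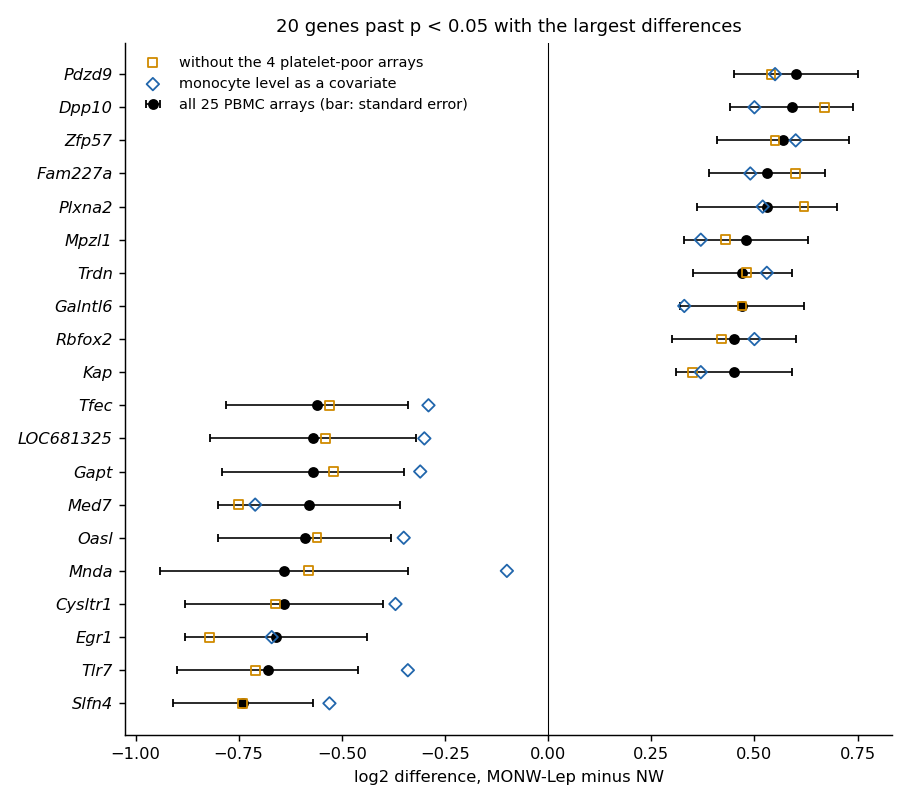
Log2 difference between MONW-Lep and NW (horizontal) for the 10 largest and 10 smallest differences among genes past the unadjusted threshold. Black points with bars of 1 standard error come from all arrays, squares from the arrays that are not platelet-poor and diamonds from the fit with the monocyte level. The diamonds of *Mnda* (-0.10), *Tfec* (-0.29) and *Tlr7* (-0.34) lie closer to 0 than their black points, and those of *Egr1* and *Med7* do not.

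T cell genes were mostly slightly higher. Of 21 measured genes 19 were above 0, 3 passed as higher (14.3%, against 2.36% of all genes), all 3 with levels above the negative controls, and the median was 0.08. *Ccr7*, the receptor that brings naive T cells to lymph nodes, read 11.86 to 12.17 in MONW-Lep (median 11.97) and 11.58 to 11.96 in NW (median 11.84). Of the MONW-Lep arrays 5 were above all NW arrays, with a difference of 0.19 ± 0.07 (SE, limma p = 0.0135, exact p = 0.00889). *Cd247*, the zeta chain of the T cell receptor, was higher by 0.20 ± 0.08 (SE, exact p = 0.0149) and *Cd3d* by 0.16 ± 0.08 (SE, exact p = 0.0135). The call of *Cd3d* ended without any 1 of 11 arrays (0.14 to 0.16), and with the monocyte level as a covariate 0 of the 3 passed (0.13, 0.14 and 0.12). B cell, NK cell, MHC class II, erythroid, respiratory chain and cell proliferation lists had 0 genes past the threshold out of 16, 18, 16, 20, 32 and 27, with medians of 0.01, 0.06, -0.05, -0.08, 0.03 and 0.00.

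**Figure D5:**
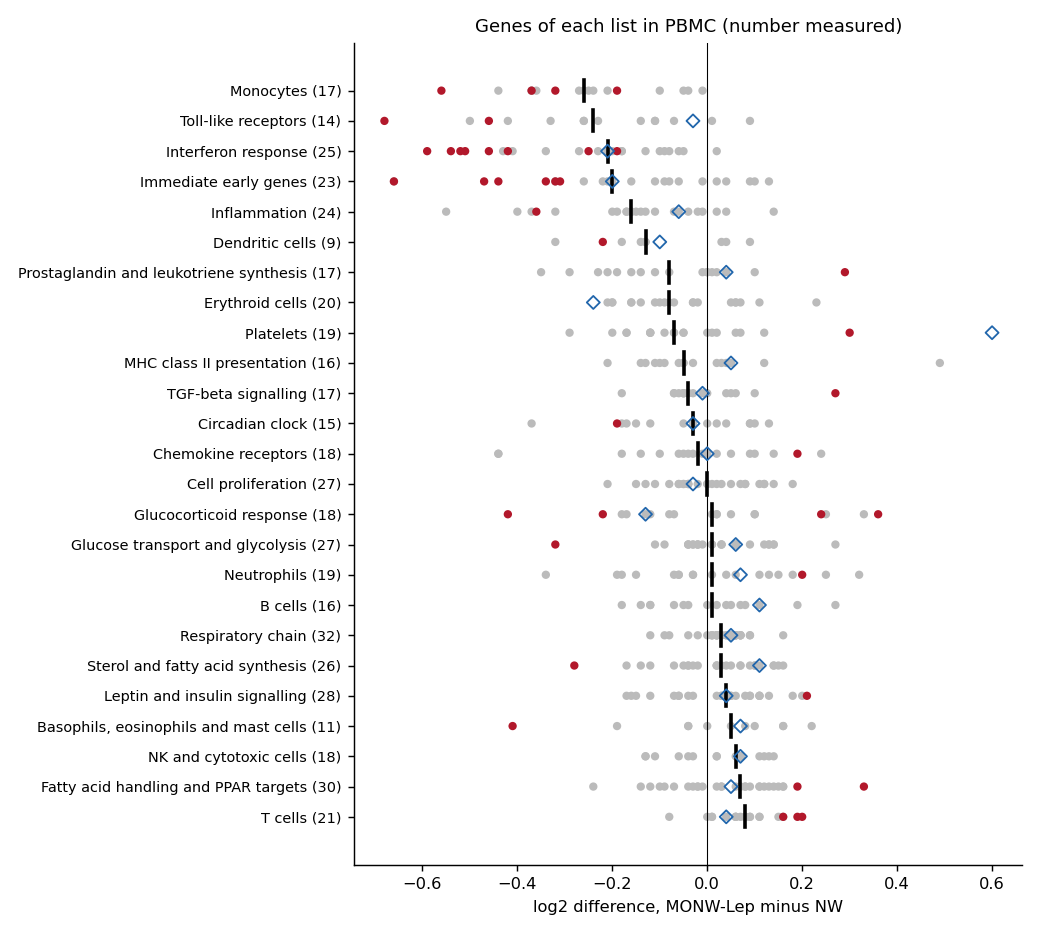
Log2 difference between MONW-Lep and NW (horizontal) for each measured gene of 25 lists (rows, with the number measured), red where the unadjusted limma p is under 0.05 and grey otherwise. Black lines are list medians and open diamonds the medians with the monocyte level as a covariate. Monocyte, Toll-like receptor, interferon and immediate early genes have medians of -0.26 to -0.20, and with the covariate the platelet median moves from -0.07 to 0.60.

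Metabolic lists passed at shares near the 4.75% of all genes. For fatty acid handling 2 of 30 genes passed (6.67%), both higher, and the median was 0.07. *Cpt1a* (chr1:209993881-210056329), the enzyme that carries long-chain fatty acids into mitochondria, read 8.90 to 9.41 in MONW-Lep (median 9.11) and 8.49 to 9.38 in NW (median 8.69). NW replicates 2 and 8 (8.96 and 9.38) lay within the MONW-Lep range and the other 6 NW arrays below it. The difference was 0.33 ± 0.12 (SE), 1.26-fold higher (limma p = 0.0122, exact p = 0.0138). *Acadvl*, which starts the oxidation of very long chains, was higher by 0.19 ± 0.07 (SE, exact p = 0.0101), a call that ended without NW replicate 4 (0.14). In sterol synthesis 1 of 26 genes passed (3.85%), *Idi1*, the isomerase of the isoprenoid pathway, at -0.28 ± 0.12 (SE, exact p = 0.0132). In glycolysis it was 1 of 27 (3.7%), the lactate transporter *Slc16a3*, at -0.32 ± 0.15 (SE, exact p = 0.0172). The calls of *Idi1* and *Slc16a3* ended without any 1 of 4 and of 9 arrays.

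Of 28 leptin and insulin signalling genes 1 passed (3.57%, against 4.75% of all genes), *Leprotl1*, a relative of the gene that limits leptin receptors at the cell surface. It read 8.76 to 9.04 in MONW-Lep (median 8.93) and 8.50 to 9.11 in NW (median 8.68), all MONW-Lep arrays being above the NW median, with a difference of 0.21 ± 0.09 (SE, exact p = 0.016). Of 18 glucocorticoid response genes 2 passed as higher and 2 as lower (22.2% together, against 4.75% of all genes). *Fkbp5*, a chaperone that binds the glucocorticoid receptor and is induced by it, read 8.34 to 8.66 (median 8.47) and 7.90 to 8.45 (median 8.21). Of the MONW-Lep arrays 5 were above all NW arrays, with a difference of 0.24 ± 0.09 (SE, exact p = 0.0072). *Ddit4*, an inhibitor of mTOR signalling, was higher by 0.36 ± 0.17 (SE, limma p = 0.0405, exact p = 0.0804). The receptor gene *Nr3c1* fell by 0.22 ± 0.09 (SE, exact p = 0.0271) and *Anxa1*, annexin A1, by 0.42 ± 0.20 (SE, limma p = 0.0467, exact p = 0.0547). The call of *Nr3c1* ended without NW replicate 5 (-0.15), those of *Ddit4* and *Anxa1* without any 1 of 10 arrays, and that of *Leprotl1* without any 1 of 6.

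Each of 7 other lists had 1 gene past the threshold, out of 19 neutrophil, 17 prostaglandin and leukotriene, 9 dendritic cell, 11 basophil, eosinophil and mast cell, 15 circadian, 17 TGF-beta and 18 chemokine receptor genes. The shares were 5.26% to 11.1% and the share of all genes 4.75%. The chemokine receptor was *Ccr7*, given above. Higher were *Prtn3*, a neutrophil granule protease, by 0.20 ± 0.10 (SE, limma p = 0.044, exact p = 0.0737), and *Ptgds*, a prostaglandin D synthase, by 0.29 ± 0.13 (SE, exact p = 0.0495). Lower were *Tcf4*, a factor that plasmacytoid dendritic cells need, by 0.22 ± 0.09 (SE, limma p = 0.0288, exact p = 0.0548), *Il5ra*, the eosinophil receptor for interleukin 5, by 0.41 ± 0.20 (SE, limma p = 0.0458, exact p = 0.0832), and *Clock*, of the circadian clock, by 0.19 ± 0.09 (SE, exact p = 0.0466). The TGF-beta gene was *Tgfb3*, a transforming growth factor, higher by 0.27 (exact p = 0.0386), a call that ended without NW replicate 1 (0.20). The other calls ended without any 1 of 12 arrays for *Prtn3*, 6 for *Ptgds*, 5 for *Tcf4*, 10 for *Il5ra* and 5 for *Clock*.

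The MONW arrays share the diet with MONW-Lep and not the leptin, and both comparisons with NW use the same NW arrays. The interferon median was -0.15 in MONW with 6 of 25 genes past as lower (1.38% of all genes), and -0.08 between MONW-Lep and MONW with 0 past. *Ifih1* averaged 6.61 in MONW-Lep, 6.78 in MONW and 7.12 in NW. The immediate early median was -0.16 in MONW, with 4 past, and -0.04 between MONW-Lep and MONW. The monocyte median was -0.15 in MONW and -0.12 between MONW-Lep and MONW, with 0 past in both. Over all genes 369 (2.45%) passed between MONW-Lep and MONW and 452 (3.0%) between MONW and NW, 0 of them after adjustment (limma, smallest adjusted p = 1.0 and 0.52).

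Levels in MONW stand beside those of some named genes here without a test, because these genes were named for their difference from NW and the MONW-Lep arrays are the same. *Gapt* averaged 6.27 in MONW-Lep, 6.88 in MONW and 6.85 in NW, a difference of -0.60 ± 0.22 (SE) from MONW. *Tgfb3* averaged 5.03, 5.30 and 4.76 in the same order, so that MONW-Lep was 0.27 above NW and 0.27 ± 0.11 (SE) below MONW. MONW-Lep was above MONW by 0.42 in *Galntl6*, 0.38 in *Kap* and in *Mpzl1*, 0.37 in *Dpp10* and 0.27 in *Trdn*. For the rest of the 10 largest increases it differed from MONW by 0.27 in *Fam227a*, 0.13 in *Plxna2*, 0.05 in *Pdzd9*, 0.03 in *Rbfox2* and -0.04 in *Zfp57*. Apart from *Gapt*, the 10 largest decreases lay between -0.32 (*Tlr7*) and -0.08 (*Oasl*) from MONW, with *Slfn4* at -0.09.

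Of the genes the study names from PBMC, 6 were measured under the annotation used here, and 3 passed in MONW-Lep against NW (4.75% of all genes did). The study chose these genes with these animals, so their values are not independent of that choice. *Piwil1* (chr12:33585747-33606715), which binds piRNAs in germ cells, read 6.22 to 6.61 in MONW-Lep (median 6.43), 5.62 to 6.45 in NW (median 6.28) and 5.96 to 6.75 in MONW (median 6.60). MONW-Lep and NW overlapped over most of their range, and the difference was 0.24 ± 0.11 (SE, limma p = 0.0439, exact p = 0.0473). MONW differed from NW by 0.36 ± 0.12 (SE). By RT-qPCR, another measure than these array values, the study reports *Piwil1* as raised in PBMC of MONW and unaltered in MONW-Lep. The call against NW ended without any 1 of 10 arrays (0.16 to 0.24), and MONW-Lep differed from MONW by -0.12 ± 0.11 (SE). *Or4c3*, an olfactory receptor gene with the former symbol *Olr729*, was higher by 0.30 ± 0.12 (SE, exact p = 0.0102), at a mean of 4.19 against 3.89. *Trib1*, a pseudokinase that directs proteins to degradation, fell by 0.42 ± 0.18 (SE, exact p = 0.0274), a call that ended without NW replicate 3 (-0.35) or MONW-Lep replicate 10 (-0.37). For MONW against NW, the study lists *Trib1* as raised in PBMC and the olfactory receptor gene as lowered. Here MONW differed from NW in the other direction, by 0.28 ± 0.12 (SE) in *Or4c3* and -0.35 ± 0.18 (SE) in *Trib1*. *Spata3*, a gene of the testis, was at 0.01 and *RGD1559600* at 0.00 from NW. MONW-Lep was below MONW in both (-0.20 ± 0.09 and -0.21 ± 0.10, SE). These values stand without a test, because the study named the genes for their difference between MONW and NW. The bitter taste receptor gene *Tas2r119* was at 0.09 ± 0.12 (SE, exact p = 0.486).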

How the data were processed

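PBMC RNA was hybridized to Affymetrix Rat Clariom S arrays, from 100 ng of total RNA with an integrity number between 7 and 10. The authors deposited log2 values, 1 per cluster of probes, from RMA (background correction, quantile normalization, probe summary). The submitters' processing notes also name R 4.0.4 and limma, and the sources used here do not give the annotation that RMA used. Arrays have no read depth, so the number of arrays limits the precision. Quantile normalization removes shifts shared by all genes.

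Groups came from the labels. Of 23188 clusters that are not controls, 15049 with 1 gene symbol in the platform annotation were tested (15043 matched RefSeq, GRCr8), and 8139 without one entered an alternative only. No pair of arrays was identical (0 of 300). All 25 PBMC arrays were fitted with limma 3.58.1 in R 4.3.3 (lmFit, eBayes, 1 coefficient per group), two-sided, at an unadjusted p under 0.05 with Benjamini-Hochberg adjusted p beside it. The fit was tested on simulated data. Exact permutation tests used 24310 regroupings. *Itga2b* had been planned as a further platelet gene and has no cluster named for it in the annotation, so the platelet level is the mean of *Pf4* and *Ppbp*. *Vom1r75* was not analysed here for the same reason. Named genes were the 10 largest and 10 smallest differences past the threshold, platelet genes, the study's PBMC genes and up to 4 genes per list with the smallest p, 60 in all. Other list members are given by their values in the lists. Members and the 26 lists were chosen with earlier results of these data known. The interferon motif search, the fit with the monocyte level and the fit without the platelet-poor arrays were added after the data were seen. Promoters are RefSeq sequences. Matplotlib 3.10.9 (Python 3.11.15) drew the figures.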

Additional observations from a re-analysis of the deposited data

Results flagged for a closer look

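Single arrays that stood far from the rest of their group were looked for in 174 groups of values (the levels of the lists and the named genes, in MONW-Lep and in NW), with Dixon's criterion, by which chance flags about 1 in 20 groups. It marked 15. NW replicate 6 was low in the platelet level (8.07, the others 10.21 to 11.73), in the platelet list (7.40, the others 8.82 to 9.98) and in *Pf4* (9.20, the others 11.56 to 12.76). NW replicate 1 was high in the neutrophil list (6.18, the others 5.73 to 5.91) and in the list of basophil, eosinophil and mast cell genes (5.70, the others 5.33 to 5.44).

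In NW, *Egr1* was low on replicate 7 (10.44, the others 10.99 to 11.49), *Oas2* on replicate 5 (4.67, the others 5.25 to 5.69) and *Acadvl* on replicate 4 (7.72, the others 7.98 to 8.19), and *Leprotl1* was high on replicate 2 (9.11, the others 8.50 to 8.78). In MONW-Lep, the neutrophil list was high on replicate 1 (6.45, the others 5.67 to 6.02). *Tlr1* was low on replicate 5, a platelet-poor array (5.41, the others 6.30 to 7.00), and *Fkbp5* was high on replicate 2 (8.66, the others 8.34 to 8.50). MONW-Lep replicate 6 was high in *Slc16a3* (8.54, the others 7.62 to 7.98), in *Tas2r119* (6.35, the others 5.50 to 5.82) and in the list of the study's PBMC genes (5.76, the others 5.53 to 5.64).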

How the results depend on the processing

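The count of 715 genes was 82 when only genes above the negative controls were tested, 1123 over all clusters and 137 at a p under 0.01, as fewer or more features or a stricter threshold make it. With 1 array left out it ran from 527 to 1131, the highest without NW replicate 6. The platelet level ran from -0.50 to 0.19 with 1 array left out, above 0 without NW replicate 3, MONW-Lep replicate 5 or MONW-Lep replicate 8, and was 0.15 without the platelet-poor arrays. Without these *Pf4* was at 0.22 and *Ppbp* at 0.08, and with the monocyte level at 0.60 and 0.62. With 1 array left out *Pf4* ran from -0.49 to 0.25, *Ppbp* from -0.50 to 0.13, *RGD1559600* from -0.03 to 0.04 and *Spata3* from -0.02 to 0.05. Around a difference of 0, *RGD1559600* was at 0.00 with the erythroid level or quantile normalization, -0.01 with cyclic loess or the monocyte level and -0.03 with the replicate block, and *Spata3* at 0.00 with loess and -0.01 with the monocyte level. Deviations from the group means correlated at r of -0.4346 to 0.3635 (median 0.057) between same-numbered NW and MONW-Lep arrays, over 8 pairs. Between arrays of different numbers r ran from -0.382 to 0.574 (median -0.026), and 1 array correlated best with its own number. These values cannot show whether array numbers pair the animals, and 744 genes passed with the replicate block. Of the 55 named genes past the threshold, the call was lost in 2 with both groups alone, 0 with the platelet or the erythroid level, 9 with the block, 2 with quantile normalization, 1 with loess, 5 with a variance trend and robust fit, 5 with array weights, 6 without the platelet-poor arrays, 26 with the monocyte level and 26 in at least 1 of 17 omissions of an array, and 0 changed sign. The cause was not tested.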
